A study of Mus musculus with 40 samples.

Results

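The 41 genes described here encode complement and coagulation factors. They were chosen by name, with no measured value in the rule, from the 55487 genes of a count table of mouse liver RNA. All 41 were in the table and all 41 passed the filter on low counts, which left 20297 genes. By their textbook source, 32 members are made mainly by the liver, 3 (C1qa, C1qb and C1qc, the chains of C1q) by macrophages and 6 (C3ar1, C5ar1, Cfp, Cfd, F3 and F8) by other cells that are not hepatocytes.

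Whole livers of female mice on a C57BL/6JBomTac background were compared between hepatocyte-specific Nampt knockouts (HNKO), in which Cre driven by the albumin promoter deletes floxed Nampt, and wild-type (WT) littermates with the floxed allele and no Cre. All mice were fed a purified diet (PD) and livers were taken at 3, 6, 12 or 21 days, which the methods describe as days of feeding while the labels list them as age. These days are read here as days of feeding, as in the methods. The WT groups held 5, 4, 5 and 5 libraries and the HNKO groups 5, 5, 6 and 3, at days 3, 6, 12 and 21. Another 2 HNKO libraries of day 21, numbers 17 and 18, are marked as having failed quality control and were left out of the comparisons. Replicates carry separate library numbers, and p-values measure the spread between them.

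The 38 libraries held 16151037 to 64181492 counted reads. Nampt itself was called lower in HNKO at days 3, 6 and 12, with log2 differences of -0.93, -0.90 and -0.82, and the difference of -0.69 at day 21 had an adjusted p of 0.161. HNKO livers lay below all WT livers of their day in 5 of 5, 4 of 5, 6 of 6 and 3 of 3 cases. Of 10 hepatocyte markers listed, 9 were tested, and 1, listed under the symbol Tf, had no tested row. The sum of the 9 spanned 112666 to 168332 CPM in WT and 71125 to 141972 CPM in HNKO. In whole tissue, fewer cells of a type and less RNA per cell cannot be told apart.

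Complement is a cascade of plasma proteins. C1q and the mannose-binding lectins recognize targets, proteases cleave C4, C2 and C3, and the terminal components from C5 to C9 assemble into a pore in the target membrane. Coagulation is a second cascade, in which vitamin K-dependent proteases and their cofactors lead to thrombin and a fibrin clot, and protein C with its cofactor protein S limits it. Hepatocytes secrete most factors of both cascades, whereas tissue macrophages are a main source of C1q.

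The terminal pathway held the members with the clearest differences between genotypes, so the DNA just upstream of these genes is shown. Each line gives the 200 bases before the gene start, 5′ to 3′ on the strand of the gene, from RefSeq (GRCm38.p6), the start being the earlier of those in RefSeq and GENCODE. C6 (chr15:4726975-4727174, plus strand), C8a (chr4:104876399-104876598, minus strand) and C9 (chr15:6445127-6445326, plus strand) were higher in HNKO at all 4 days. C8b (chr4:104766117-104766316, plus strand) and C8g (chr2:25501720-25501919, minus strand) encode the partner chains of the C8a product. Capitals mark matches on either strand to 7 short motifs of liver promoters.
C6: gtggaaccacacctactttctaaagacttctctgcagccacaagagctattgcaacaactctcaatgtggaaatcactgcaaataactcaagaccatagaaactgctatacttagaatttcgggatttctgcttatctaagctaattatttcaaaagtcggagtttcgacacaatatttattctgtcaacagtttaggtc
C8a: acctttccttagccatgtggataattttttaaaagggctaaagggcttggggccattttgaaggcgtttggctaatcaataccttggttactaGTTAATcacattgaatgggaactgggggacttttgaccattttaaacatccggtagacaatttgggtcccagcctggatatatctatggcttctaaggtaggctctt
C9: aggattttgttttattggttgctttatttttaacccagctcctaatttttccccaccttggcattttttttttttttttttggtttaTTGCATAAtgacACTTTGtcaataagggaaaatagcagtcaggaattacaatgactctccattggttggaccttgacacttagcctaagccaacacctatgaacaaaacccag
C8b: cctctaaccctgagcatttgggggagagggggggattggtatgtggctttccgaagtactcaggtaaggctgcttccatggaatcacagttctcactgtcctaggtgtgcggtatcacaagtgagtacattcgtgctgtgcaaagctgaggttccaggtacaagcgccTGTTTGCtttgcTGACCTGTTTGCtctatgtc
C8g: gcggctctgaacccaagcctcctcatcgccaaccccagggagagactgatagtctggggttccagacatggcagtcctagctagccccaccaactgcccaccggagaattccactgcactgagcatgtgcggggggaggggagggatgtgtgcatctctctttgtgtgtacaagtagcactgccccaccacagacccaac

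The motifs searched on both strands were an HNF1 half-site (GTTAAT), an HNF4 half-site (CAAAGT), FOXA (TGTTTNC), C/EBP (TTNNGCAA), STAT (TTCNNNGAA), a nuclear receptor half-site (AGGTCA) and a TATA box (TATAAA). The C8a window held an HNF1 half-site, found in 5.06% of 32851 promoter windows of this length. The C9 window held an HNF4 half-site (9.84% of windows) and a C/EBP match (7.47%). The C8b window held a pair of FOXA matches, where 14.1% of windows hold at least 1, and a nuclear receptor half-site (11.4%) between them, which shares 1 base with the second match. None of the motifs was found in the C6 and C8g windows, and none was common to C6, C8a and C9. RefSeq promoters matched 32 of the 41 members.

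To ask how loss of hepatocyte Nampt changed these factors over time, HNKO was compared with WT at each day by edgeR's quasi-likelihood test over all genes that passed the filter. A gene was called at a Benjamini-Hochberg adjusted p under 0.05, and differences are HNKO minus WT on the log2 scale. At day 3, 3 members were called higher (C6, C8a and C9), against 2.95% of all genes, and 1 lower (F3), against 1.71%. At day 6, 7 members were higher (C1qc, C6, C8a, C9, C3ar1, C5ar1 and Pros1; background 8.42%) and 1 was lower (C8g; 4.37%). Day 12 gave 5 higher (C1qc, C6, C8a, C9 and Pros1; 4.56%) and 0 lower (3.27%), and day 21 gave 4 higher (C6, C8a, C9 and Pros1; 2.21%) and 0 lower (0.916%). C6, C8a and C9 were thus called at all 4 days, Pros1 at 3, C1qc at 2 and 4 members at 1 day, while 32 members were called at no day.

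**Figure D1:**
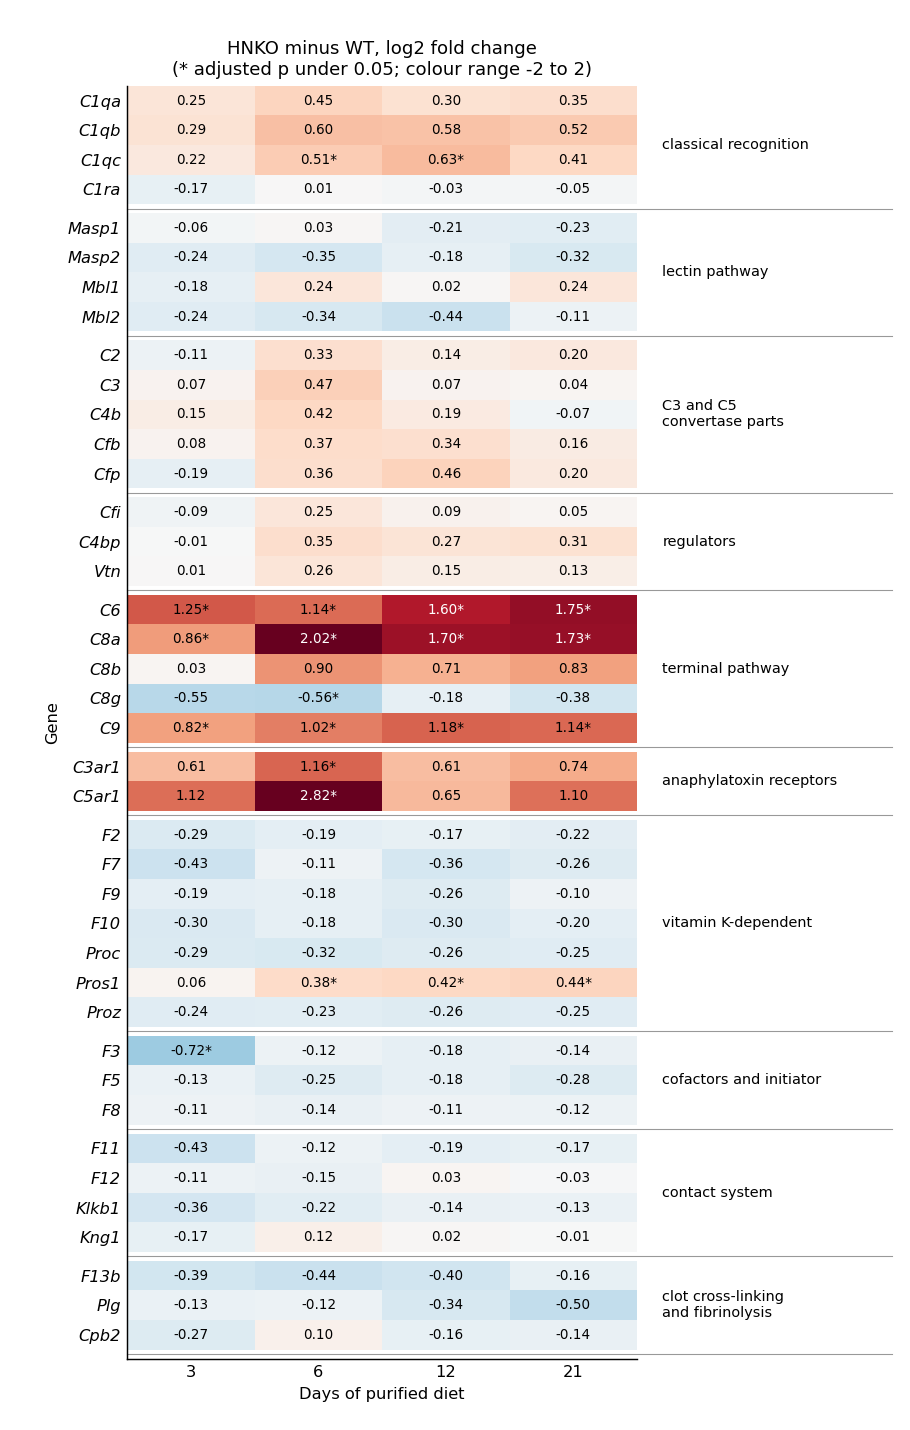
Difference between HNKO and WT (log2 fold change, as colour and printed value) for 40 members in rows, grouped by role, at each day of PD in columns; an asterisk marks an adjusted p under 0.05, and Cfd is left out because it had 0 reads in 13 of the 38 libraries. C6, C8a and C9 carry an asterisk at all 4 days, and the 6 vitamin K-dependent genes other than Pros1 are below 0 at all 4 days.

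C6 encodes the component that joins C5b first. At day 3 its log2 CPM was 5.29, 5.17, 4.95, 5.29 and 5.15 in WT and 6.77, 6.54, 5.29, 6.0 and 6.94 in HNKO. The lowest HNKO liver lay at the level of the highest WT livers and the other 4 lay above. Day 6 gave 4.62, 4.68, 4.98 and 4.52 in WT and 5.78, 5.63, 6.44, 5.33 and 5.82 in HNKO. Day 12 gave 3.93, 4.61, 3.97, 3.74 and 4.23 in WT, and the 6 HNKO livers had a lowest of 5.20, a median of 5.68 and a highest of 6.23. Day 21 gave 3.81, 4.59, 4.93, 4.67 and 4.30 in WT and 6.63, 5.79 and 6.25 in HNKO. The genotypes did not overlap at days 6, 12 and 21. The differences were 1.25, 1.14, 1.6 and 1.75 (SE 0.24, 0.26, 0.24 and 0.27), or 2.37-fold, 2.2-fold, 3.03-fold and 3.38-fold, at days 3, 6, 12 and 21, with adjusted p of 0.00374, 0.0038, 0.000206 and 0.000598 (edgeR quasi-likelihood test). All of these calls were kept in every alternative setting and in every fit with a library left out.

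C8a encodes the alpha chain of C8. WT livers read 8.33, 8.80, 8.36, 8.58 and 7.60 at day 3 and HNKO livers 8.92, 9.47, 9.22, 9.50 and 9.02. At day 6 the WT values were 7.90, 7.89, 7.09 and 7.24 and the HNKO values 9.64, 9.75, 9.76, 9.21 and 9.55. Every HNKO liver lay above every WT liver on these days. At day 12 the WT values were 6.88, 6.98, 7.39, 7.69 and 6.34, and HNKO had a lowest of 7.69, a median of 8.65 and a highest of 9.45. The values at day 21 were 6.98, 7.26, 7.95, 6.84 and 7.44 in WT and 9.09, 9.11 and 9.05 in HNKO. At day 12 the lowest HNKO liver was level, to rounding, with the highest WT liver, and at day 21 the groups were well apart. The differences were 0.86, 2.02, 1.70 and 1.73 (SE 0.26, 0.29, 0.26 and 0.29), with adjusted p of 0.048, 3.3e-05, 0.000206 and 0.00135. The call at day 3 ended in 3 of 7 alternative settings and without any one of 8 of its 10 libraries, and those of the other days were kept throughout.

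C9 encodes the subunit that polymerizes into the wall of the pore. Its values at day 3 were 8.45, 8.36, 7.56, 8.01 and 7.16 in WT and 8.28, 9.36, 8.76, 8.91 and 8.52 in HNKO. Those at day 6 were 7.92, 7.84, 7.26 and 7.41 in WT and 8.81, 8.99, 8.33, 8.14 and 8.83 in HNKO. The groups overlapped at day 3 and were apart at day 6. WT livers of day 12 read 6.78, 7.39, 7.48, 7.02 and 6.48, and HNKO had a lowest of 7.61, a median of 8.11 and a highest of 8.79. WT livers of day 21 read 6.59, 7.13, 7.34, 6.56 and 6.49, and HNKO livers 7.90, 8.06 and 8.06. The groups were apart on both days. The differences were 0.82, 1.02, 1.18 and 1.14 (SE 0.25, 0.27, 0.24 and 0.28), with adjusted p of 0.047, 0.01, 0.00433 and 0.0197. The call at day 3 ended in 4 of 7 alternative settings and without any one of 7 of its 10 libraries. The call at day 21 ended without WT library 19, WT library 41 or HNKO library 37, with an adjusted p of up to 0.174.

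**Figure D2:**
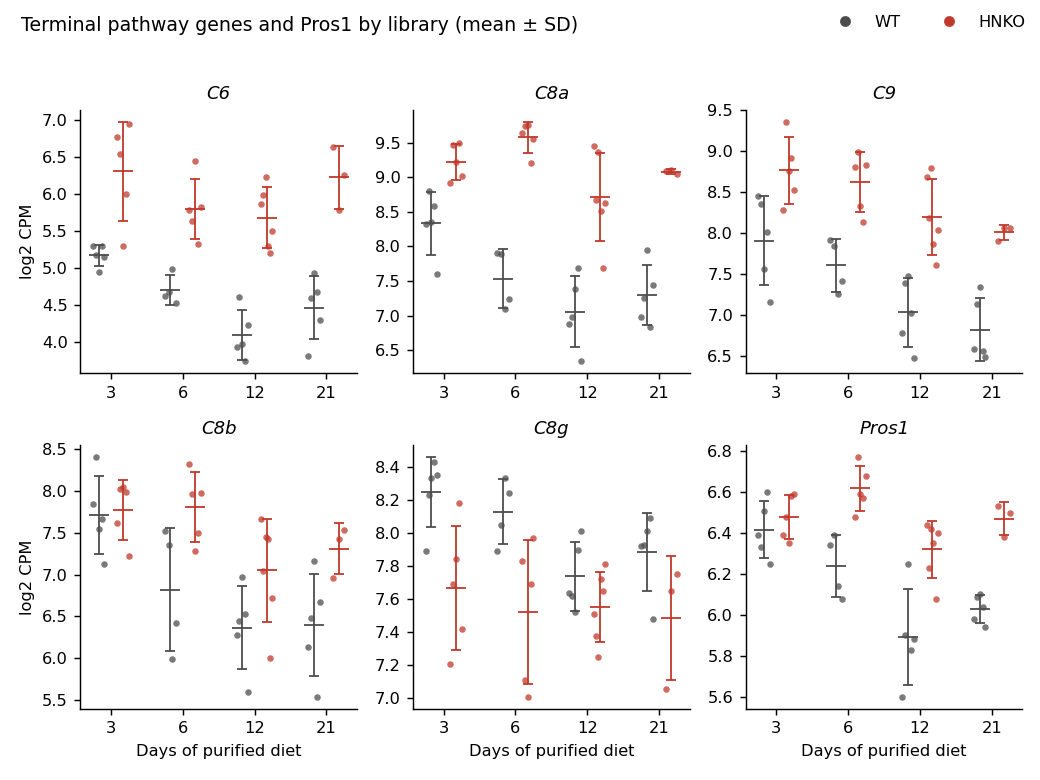
Level (log2 CPM, y axis) of the 5 terminal pathway members and of Pros1 in each library by days of PD (x axis), WT in grey and HNKO in red; points are libraries, and bars are mean ± SD. C6 and C9 separate the genotypes from day 6 on. C8a separates them at days 3, 6 and 21, and at day 12 its nearest livers are level. The C8b and C8g groups overlap at every day, and the Pros1 groups overlap at day 3 and are apart at days 6 and 21.

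With all 38 libraries and no covariate, neither partner chain of C8 was called by edgeR at more than 1 day. C8b, the beta chain, passed the test at no single day, with differences of 0.03, 0.90, 0.71 and 0.83 at days 3, 6, 12 and 21 (adjusted p = 0.971, 0.0649, 0.125 and 0.185), and was called higher in the mean of the 4 days (0.62, SE 0.16, adjusted p = 0.00239). With the library number series as a covariate, C8b was called at days 6, 12 and 21 (adjusted p = 0.00948, 0.0398 and 0.0185), and with DESeq2 at day 6 (0.039). C8g encodes the gamma chain, a small lipocalin, and was called lower at day 6 (-0.56, SE 0.18, adjusted p = 0.0387), with -0.55, -0.18 and -0.38 at days 3, 12 and 21. The call at day 6 ended in 3 of 7 alternative settings and without any one of 6 of its 9 libraries, and at day 3 C8g was called with DESeq2 (adjusted p = 0.0314) and without WT library 1 or HNKO library 22. In the mean of the 4 days C8g was called lower (-0.42, SE 0.09, adjusted p = 0.000472), and that call ended in 0 of 38 fits with a library left out. C8g spanned 7.48 to 8.43 log2 CPM in WT and 7.01 to 8.18 in HNKO, and its groups overlapped at every day.

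As a description, the log2 ratio of C8a to C8g within a library was 0.09 ± 0.51 (mean ± SD, n = 5) in WT and 1.56 ± 0.20 (n = 5) in HNKO at day 3. At day 21 it was -0.59 ± 0.54 (n = 5) and 1.59 ± 0.38 (n = 3). The ratio of C8a to C8b had WT means of 0.62, 0.71, 0.69 and 0.89 and HNKO means of 1.45, 1.77, 1.67 and 1.78 at days 3, 6, 12 and 21. C8b and C8a are neighbours on chromosome 4 with 11.1 kb between them, and C6 and C9 lie 1630 kb apart on chromosome 15. C7 and Hc, which encode the other terminal components and are not members, were each called at day 6 alone (1.94 and 0.45, adjusted p = 0.00531 and 0.043).

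Other cell and response markers moved beside these genes. All 9 acute phase genes, a hepatocyte response to inflammation, were called higher at day 6, and 3, 6 and 1 at days 3, 12 and 21. Their sum spanned 8043 to 8793 CPM in WT and 19229 to 26002 CPM in HNKO at day 6, and 6780 to 8156 CPM and 8980 to 10285 CPM at day 21, apart on both days. At day 3 this sum spanned 7762 to 9496 CPM in WT and 7640 to 13397 CPM in HNKO. At day 12 it spanned 7021 to 7630 CPM and 7068 to 15038 CPM, so the genotypes overlapped on those days. The 5 bile duct markers summed to 34 to 48.6 CPM over WT livers and 105 to 751 CPM over HNKO livers. Spp1 weighs most in this sum: in WT at day 21 it stood at 4.91 to 5.30 log2 CPM (scaled over all 40 libraries) and the other markers at -1.88 to 1.82. Of the 5 markers, 4, 4, 3 and 2 were called higher at days 3, 6, 12 and 21, Spp1 and Epcam at all 4 days. Of the 9 hepatocyte markers, 4 were called lower in the mean of the 4 days, Alb, Apoa2, Cyp2e1 and Ttr (-0.46, -0.54, -0.67 and -0.40), and Apoa1, Apob, Cps1, Hnf4a and Cyp3a11 did not pass (-0.29 to 0.14). At single days, Alb, Apoa2 and Ttr were called lower at day 6, and Cyp3a11 was called higher at day 12 (0.69, adjusted p = 0.0316). The part of these changes in the member values was not tested.

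Of the 5 terminal pathway genes, 4 also changed with time in WT livers, and C8g did not pass (adjusted p = 0.18). The test over the 4 days within WT called 9 members (C1qb, C1qc, C6, C8a, C8b, C9, Cfp, Cpb2 and Pros1), against a background of 5.84% of genes. C8a stood at 8.34 ± 0.45 (n = 5) at day 3, 7.06 ± 0.52 (n = 5) at day 12 and 7.29 ± 0.44 (n = 5) at day 21 in WT, with an adjusted p of 0.00443 over the days. On the same days C6 stood at 5.17 ± 0.14, 4.10 ± 0.34 and 4.46 ± 0.43 (adjusted p = 0.0309). C8b stood at 7.71 ± 0.47, 6.37 ± 0.50 and 6.40 ± 0.60 (0.00725), and C9 at 7.91 ± 0.55, 7.03 ± 0.42 and 6.82 ± 0.39 (0.00841). The WT means of these 4 genes were lower at days 12 and 21 than at day 3. The call of C6 ended without any one of 7 of the 19 WT libraries and that of C8b without 1, whereas those of C8a, C9 and Pros1 were kept in all 19 such fits. With all 40 libraries the test called 7 members, without C1qb and C6, where 2.91% of all genes were called. With the number series as a covariate it called 13, with C1qa, F5, F12 and Kng1 added, where 10.96% of all genes were called.

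Within HNKO the test over days also called 9 members (C1qb, C1qc, C2, C5ar1, Cfd, Cfp, Cpb2, F3 and F5; background 7.9%). That of Cfd, with 702 and 361 reads in 2 livers of day 12 and 0 in some others, is not read as a change with time. The calls of C1qc, Cfp and Cpb2 were kept in every fit with an HNKO library left out. Those of C1qb, C2, C5ar1, F3 and F5 each ended in some of these fits, and that of F5 also with no filter on low counts. The terminal genes did not pass there, with adjusted p of 0.118 for C6, 0.166 for C8a, 0.237 for C8b and 0.141 for C9. C6 was called in this test when HNKO library 4 was left out. Whether the genotype difference itself varied between days was tested by the genotype by day interaction of the edgeR fit, which called 0 of 20297 genes (0%). At an unadjusted p under 0.05 it passed for 4.76% of genes and for 4 members, Cfd, with the same limit, C8a (0.023), Pros1 (0.0207) and C5ar1 (0.00329). A difference between the genotypes in the course over days was therefore not shown for any member.

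Pros1 encodes protein S, the cofactor of protein C, which endothelial cells also make. Its log2 CPM at day 3 was 6.39, 6.33, 6.51, 6.60 and 6.25 in WT and 6.39, 6.48, 6.35, 6.58 and 6.59 in HNKO. On day 6 the WT livers read 6.34, 6.39, 6.14 and 6.08 and the HNKO livers 6.48, 6.77, 6.59, 6.57 and 6.68. The groups overlapped at day 3 and were apart at day 6. On day 12 the WT livers read 5.60, 5.90, 6.25, 5.83 and 5.88, and the HNKO livers had a lowest of 6.08, a median of 6.37 and a highest of 6.44. On day 21 the values were 5.98, 6.09, 6.10, 6.04 and 5.94 in WT and 6.53, 6.38 and 6.50 in HNKO. 1 WT liver reached into the HNKO range at day 12, and at day 21 the groups were apart. The differences were 0.06, 0.38, 0.42 and 0.44 (SE 0.09, 0.10, 0.09 and 0.10), with adjusted p of 0.76, 0.00854, 0.00494 and 0.0172. The call at day 21 ended without HNKO library 37 (adjusted p = 0.234).

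The other 6 vitamin K-dependent members are F2 (prothrombin), F7, F9 and F10 (proteases upstream of it), Proc (protein C) and Proz (protein Z). Each was below WT at each of the 4 days, by -0.10 (F9, day 21) to -0.43 (F7, day 3), and none passed the test at a single day. In the mean of the 4 days, 11 of the 41 members were called higher and 14 lower, against 19.2% and 17.3% of all genes. All 6 were among those called lower there, with F2 at -0.22, F7 at -0.29, F9 at -0.18, F10 at -0.25, Proc at -0.28 and Proz at -0.24, while Pros1 was called higher (0.32, SE 0.05, adjusted p = 2.61e-06). Ggcx and Vkorc1, which carry out and sustain the vitamin K-dependent carboxylation of these proteins, were called lower in the mean test as well (-0.20 and -0.37) and at no single day. Without HNKO library 37, 7 members rather than 14 were called lower in the mean test, and the calls of F9, Proz, F5, Klkb1, Plg, Mbl2 and Masp2 ended. That of Proz ended in 17 of 38 fits with a library left out, while those of F2, F7, F10 and Proc were kept in all. With no filter on low counts the calls of Proz, Plg and Klkb1 ended too, and with all 40 libraries those of Proz and F3.

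Among the cofactors, F5, the cofactor of prothrombin activation, read 10.11, 10.14, 9.84, 9.87 and 9.64 in WT and 9.67, 9.74, 10.03, 9.98 and 9.51 in HNKO at day 3. It read 9.96, 10.15, 9.70 and 9.83 in WT and 9.82, 9.76, 9.22, 9.71 and 9.76 in HNKO at day 6. The groups overlapped on both days. At day 12 it read 10.25, 10.29, 10.57, 10.36 and 10.01 in WT, and in HNKO it had a lowest of 9.93, a median of 10.12 and a highest of 10.28. At day 21 it read 10.20, 10.31, 10.11, 10.17 and 10.38 in WT and 9.75, 10.15 and 9.96 in HNKO. The groups overlapped again, and F5 was called lower only in the mean of the 4 days (-0.21, SE 0.07, adjusted p = 0.0113), a call that ended without HNKO library 37. F3, tissue factor, the initiator of coagulation, was called lower at day 3 (-0.72, SE 0.18, adjusted p = 0.0192), with 2.72 ± 0.38 (n = 5) in WT and 2.04 ± 0.31 (n = 5) in HNKO. Its call at day 3 ended in 2 of 7 alternative settings and without WT library 1 or HNKO library 23. F3 was also called lower in the mean of the 4 days (-0.29, SE 0.09, adjusted p = 0.014), and that call ended with all 40 libraries in the fit and in 0 of 38 fits with a library left out. F8, the factor missing in hemophilia A, had differences of -0.14 to -0.11 and was not called.

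In the contact system, Klkb1 encodes plasma prekallikrein. Its values were 7.89, 8.04, 7.88, 8.21 and 7.85 in WT and 7.25, 7.39, 7.73, 8.03 and 7.55 in HNKO at day 3. They were 7.76, 7.95, 7.62 and 7.94 in WT and 7.58, 7.28, 7.28, 7.72 and 8.02 in HNKO at day 6. Single livers overlapped on both days. They were 7.56, 7.65, 7.70, 8.11 and 7.64 in WT at day 12, where HNKO had a lowest of 7.27, a median of 7.57 and a highest of 8.04. They were 7.97, 8.27, 8.11, 7.98 and 7.85 in WT and 7.61, 7.96 and 8.12 in HNKO at day 21. The groups overlapped on these days too, and the mean difference was -0.22 (SE 0.08, adjusted p = 0.0279), a call lost in 4 of 38 fits with a library left out, those without WT library 33 and HNKO libraries 23, 29 and 37. Of the 51-base stretches of Klkb1, 42.7% also occur in the gene model Gm45753, which limits how its reads can be assigned. F11 and F12, proteases of this system, and Kng1, the kininogen, were not called (-0.43 to 0.12).

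F13b encodes the carrier subunit of factor XIII, which cross-links fibrin. It read 8.43, 8.61, 8.29, 8.36 and 8.17 in WT and 7.81, 8.01, 8.35, 7.99 and 7.72 in HNKO at day 3. The readings of day 6 were 8.61, 8.56, 7.91 and 8.13 in WT and 8.28, 7.79, 7.22, 7.92 and 8.03 in HNKO. Both days showed overlap between the groups. The readings of day 12 were 8.0, 8.31, 8.57, 7.96 and 7.90 in WT, and HNKO had a lowest of 7.62, a median of 7.72 and a highest of 7.96. The readings of day 21 were 7.86, 8.16, 8.06, 7.84 and 8.20 in WT and 7.46, 8.01 and 8.06 in HNKO. The groups overlapped there as well. F13b was called lower in the mean test (-0.35, SE 0.08, adjusted p = 0.00136), as was Plg, plasminogen (-0.27, adjusted p = 0.0247; not without HNKO library 23, 29, 35 or 37), whereas Cpb2, the fibrinolysis inhibitor TAFI, was not (-0.12). Over the 17 coagulation members the median difference was -0.27, -0.15, -0.18 and -0.16 at days 3, 6, 12 and 21, against 0.01, -0.01, 0.00 and -0.01 over all genes tested. Over the 24 complement members it was 0.02, 0.39, 0.29 and 0.22, Cfd included.

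C1q is the recognition molecule of the classical pathway, and the genes of its 3 chains lie side by side on chromosome 4. C1qc read 6.09, 6.04, 6.02, 5.89 and 5.58 in WT and 6.15, 6.46, 6.08, 5.85 and 6.14 in HNKO at day 3. At day 6 it read 5.86, 5.87, 6.13 and 5.82 in WT and 6.64, 6.54, 6.60, 6.29 and 6.03 in HNKO. WT and HNKO livers overlapped on these days. WT livers read 5.22, 5.51, 4.84, 4.71 and 5.47 at day 12, and HNKO had a lowest of 5.27, a median of 5.77 and a highest of 6.21. WT livers read 4.93, 5.37, 5.38, 5.49 and 5.29 at day 21 and HNKO livers 5.84, 5.74 and 5.56. The groups overlapped at day 12 and were apart at day 21. The differences were 0.22, 0.51, 0.63 and 0.41 (SE 0.16, 0.17, 0.15 and 0.18), with adjusted p of 0.462, 0.0403, 0.0119 and 0.209. The call at day 6 ended in 2 of 7 alternative settings and without any one of 6 of its 9 libraries, and that at day 12 ended with only the groups of that day in the fit.

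C1qb read 6.08, 6.18, 5.93, 5.89 and 5.49 in WT and 6.30, 6.58, 6.20, 5.81 and 6.11 in HNKO at day 3. The values of day 6 were 6.04, 5.81, 6.10 and 5.73 in WT and 6.75, 6.76, 6.70, 6.25 and 6.06 in HNKO. Neither day set the groups apart. The values of day 12 were 5.41, 5.73, 5.13, 4.59 and 5.27 in WT, and HNKO had a lowest of 5.22, a median of 5.82 and a highest of 6.31. The values of day 21 were 4.86, 5.35, 5.22, 5.43 and 5.30 in WT and 5.98, 5.74 and 5.53 in HNKO, where the groups were apart. C1qb passed the main edgeR test at no single day, with differences of 0.29, 0.60, 0.58 and 0.52 and adjusted p of 0.419, 0.0505, 0.0513 and 0.198. It was called with the edgeR 4 computation at days 6 and 12 and with only the groups of the day at day 6. With DESeq2 the adjusted p at days 6 and 12 were 0.0371 and 0.0332, and with the number series as a covariate those at days 6, 12 and 21 were 0.0165, 0.0174 and 0.0333.

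C1qa, the chain with the highest level per length, read 6.41, 6.35, 5.95, 5.95 and 5.61 in WT and 6.46, 6.62, 6.49, 5.87 and 6.08 in HNKO at day 3. For day 6 the values were 6.51, 6.10, 6.06 and 5.74 in WT and 6.83, 6.86, 6.65, 6.35 and 6.0 in HNKO. For day 12 they were 5.69, 6.18, 5.80, 4.74 and 5.51 in WT, and HNKO had a lowest of 5.44, a median of 5.87 and a highest of 6.42. On none of these days were the groups apart, and at day 21, with 5.02, 5.45, 5.40, 5.54 and 5.69 in WT and 5.91, 5.76 and 5.69 in HNKO, they met at 1 value. The differences of 0.25, 0.45, 0.30 and 0.35 were not called (adjusted p = 0.539, 0.202, 0.381 and 0.483). In the mean of the 4 days all 3 chains were called higher, with 0.34 (SE 0.11) for C1qa, 0.50 (SE 0.10) for C1qb and 0.44 (SE 0.08) for C1qc. C1ra, a protease of the C1 complex, was not called (-0.17 to 0.01).

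**Figure D3:**
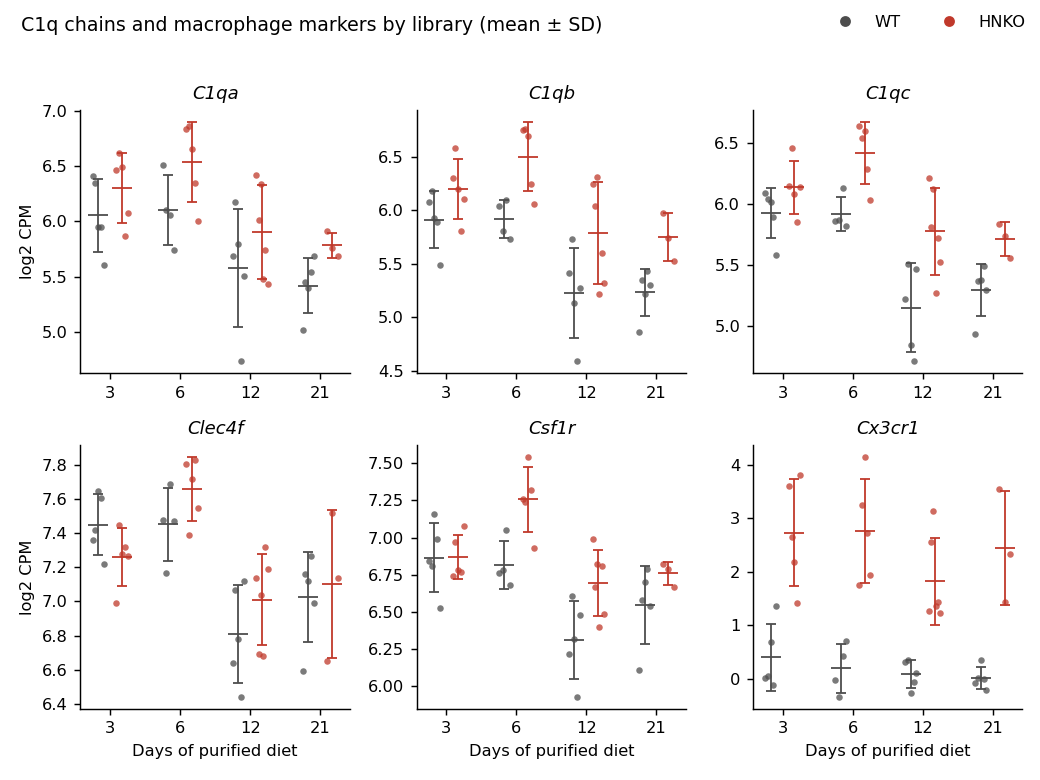
Level (log2 CPM, y axis) of the 3 C1q chains, the Kupffer cell marker Clec4f, the macrophage receptor Csf1r and the monocyte and macrophage marker Cx3cr1 in each library by days of PD (x axis), WT in grey and HNKO in red, with mean ± SD. C1qb and C1qc are apart between genotypes at day 21 alone, and Cx3cr1 was called higher in HNKO at all 4 days.

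Macrophage markers moved beside C1q. Of 7 markers of Kupffer cells, the resident macrophages, Cd163 was called lower at days 3 and 12 and no other marker was called at a single day. In the mean test Cd5l, Vsig4 and Marco were higher and Cd163 was lower, while Clec4f, Timd4 and Folr2 did not pass (0.08, 0.09 and 0.10). Of 9 macrophage or monocyte markers, 3, 8, 4 and 4 were called higher at days 3, 6, 12 and 21, with Ccr2, Cd14 and Cx3cr1 among them at each day. At day 3 the Kupffer sum spanned 363 to 529 CPM in WT and 344 to 538 CPM in HNKO, with means of 469 and 422 CPM. The macrophage or monocyte sum had means of 277 and 331 CPM on that day and the sum of the C1q chains 190 and 226 CPM. At day 6 the Kupffer sum spanned 436 to 551 CPM in WT and 553 to 696 CPM in HNKO, and the macrophage or monocyte sum 232 to 289 CPM and 334 to 741 CPM. At day 12 the spans were 220 to 414 CPM and 259 to 569 CPM, and 138 to 215 CPM and 200 to 341 CPM. At day 21 they were 259 to 390 CPM and 360 to 504 CPM, and 147 to 242 CPM and 251 to 382 CPM, the latter pair apart between genotypes. All markers of both lists passed the filter, and their part in the C1q values was not tested.

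Set against the liver-made members, the C1q chains had higher group means in HNKO at each day. The mean log2 CPM of the 3 chains minus that of the 32 liver-made members was -2.65 ± 0.18 (n = 5) in WT and -2.31 ± 0.38 (n = 5) in HNKO at day 3. It was -2.47 ± 0.20 (n = 4) and -2.11 ± 0.40 (n = 5) at day 6, -2.97 ± 0.41 (n = 5) and -2.56 ± 0.36 (n = 6) at day 12, and -2.98 ± 0.22 (n = 5) and -2.65 ± 0.30 (n = 3) at day 21. The difference between the sources was not tested. The median difference was 0.25, 0.51, 0.58 and 0.41 over the C1q chains and -0.15, 0.02, -0.09 and -0.08 over the liver-made members, at days 3, 6, 12 and 21. Outside the terminal pathway, Pros1 was the only one of 27 liver-made members called at any single day.

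In the lectin pathway no member was called at a single day. Mbl2, a mannose-binding lectin, read 9.28, 9.40, 8.88, 9.20 and 8.82 in WT and 8.69, 9.06, 9.13, 8.94 and 8.58 in HNKO at day 3. Values of day 6 were 9.26, 9.20, 8.88 and 8.91 in WT and 8.91, 8.41, 8.59, 8.73 and 8.95 in HNKO. On both days the ranges of the groups overlapped. Values of day 12 were 9.15, 8.87, 9.51, 8.81 and 8.42 in WT, and HNKO had a lowest of 7.99, a median of 8.57 and a highest of 8.91. Values of day 21 were 8.79, 9.0, 8.95, 8.58 and 8.72 in WT and 8.39, 8.77 and 8.91 in HNKO. The overlap held on these days too, and Mbl2 was called lower in the mean test (-0.28, SE 0.09, adjusted p = 0.0113). Masp2, the protease that cleaves C4 and C2, was also called lower there (-0.27). Neither call held without HNKO library 37. For Masp2, 54.9% of its exon length also lies opposite Tardbp, and the strand setting of the counting is not given in the sources used here. Mbl1, the other mannose-binding lectin, and Masp1, a protease that acts with Masp2, were not called (-0.23 to 0.24).

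The parts of the C3 and C5 convertases were called neither at a single day nor in the mean test. C3, on which all pathways converge, had WT means of 13.46 ± 0.34, 13.32 ± 0.24, 13.48 ± 0.23 and 13.34 ± 0.20 and HNKO means of 13.53 ± 0.34, 13.79 ± 0.26, 13.53 ± 0.35 and 13.38 ± 0.20 (mean ± SD) at days 3, 6, 12 and 21. By the fitted difference C3 differed most at day 6 (0.47, adjusted p = 0.113), as did C4b (0.42), Cfb (0.37) and C2 (0.33), which supply the other convertase subunits. The mean log2 CPM of Cfb was further apart at day 12 (5.55 in WT and 6.06 in HNKO) than at day 6 (6.13 and 6.49). WT library 16 of day 12 was low, at 4.04. With the number series as a covariate C3 was called higher at day 6 and in the mean test (adjusted p = 0.029 and 0.0278). Reads of Cfb, C2, C4b and C1ra are uncertain, since 72.9%, 41.5%, 33.9% and 50.4% of their 51-base stretches also occur in another gene.

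Cfp encodes properdin, which stabilizes the alternative convertase and is made by leukocytes. Its levels were 5.35, 5.26, 5.71, 5.39 and 5.17 in WT and 4.89, 5.50, 5.16, 5.24 and 5.14 in HNKO at day 3. Levels of day 6 were 5.44, 5.27, 5.71 and 5.28 in WT and 6.02, 5.67, 5.92, 5.72 and 5.57 in HNKO. HNKO and WT ranges overlapped at these times. Levels of day 12 were 4.66, 5.14, 4.35, 4.15 and 4.82 in WT, and HNKO had a lowest of 4.62, a median of 5.04 and a highest of 5.79. Levels of day 21 were 4.39, 4.97, 4.89, 4.94 and 4.73 in WT and 5.06, 5.19 and 4.69 in HNKO. The groups overlapped here too, and the mean difference of 0.21 was not called (adjusted p = 0.069). Cfp changed with day within each genotype (adjusted p = 0.00403 in WT and 0.0102 in HNKO).

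Cfd, adipsin, is best known as a fat cell product. It had 0 reads in 13 of the 38 libraries and 10 or more in 11. Its highest counts were 702 and 361 in HNKO libraries 11 and 32 of day 12, 356 in WT library 26 of day 3 and 168 in HNKO library 7 of day 6. Adipoq, the fat hormone adiponectin, had 200, 154, 112 and 118 reads in these libraries. Of the 11 libraries with 10 or more Cfd reads, 7 also had 10 or more Adipoq reads, which 8 libraries reached in all. No adipocyte marker was called between genotypes, and the part of fat cells in the Cfd counts was not tested. Cfd passed the filter through a few libraries, so no fold change is given.

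**Figure D4:**
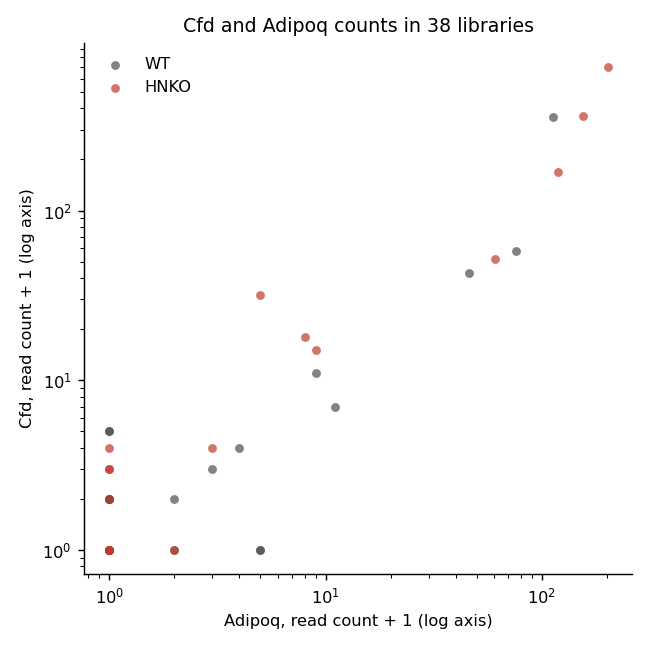
Read count plus 1 of Cfd (y axis, log) against that of Adipoq (x axis, log) in the 38 libraries, WT in grey and HNKO in red. The 4 libraries with the most Cfd reads, 168 to 702, hold 112 to 200 Adipoq reads.

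The regulators were called at no single day. C4bp, which restrains the classical convertase, read 8.56, 8.81, 8.98, 9.08 and 8.82 in WT and 8.62, 8.85, 8.78, 8.99 and 8.99 in HNKO at day 3. For the livers of day 6 the values were 8.51, 8.65, 8.91 and 8.92 in WT and 8.95, 8.76, 9.29, 9.21 and 9.26 in HNKO. The ranges overlapped at days 3 and 6. For those of day 12 they were 8.36, 8.58, 8.22, 8.72 and 9.01 in WT, and HNKO had a lowest of 8.67, a median of 8.83 and a highest of 9.24. For those of day 21 they were 8.73, 8.87, 8.80, 8.84 and 8.78 in WT and 9.14, 9.11 and 9.08 in HNKO. The groups were apart at day 21, where the adjusted p was 0.261, and C4bp was called higher in the mean test (0.23, SE 0.07, adjusted p = 0.00672). Cfi, which cleaves C3b, and Vtn, vitronectin, which keeps the pore out of membranes, were not called (-0.09 to 0.26). With the number series as a covariate, C4bp was called at day 6 (adjusted p = 0.0303) and Vtn in the mean test (0.0481).

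C3ar1 and C5ar1 encode the receptors of the anaphylatoxins C3a and C5a and are carried by myeloid cells. C5ar1 read -0.35, -0.24, -0.24, -0.58 and 0.15 log2 CPM in WT and 0.86, 0.62, 0.55, 0.02 and 1.62 in HNKO at day 3. Its values at day 6 were -0.56, -0.91, -1.66 and -0.60 in WT and 0.43, 1.50, 2.80, 2.08 and 1.01 in HNKO. The groups overlapped at day 3 and were apart at day 6. Its values at day 12 were -0.31, 0.43, -0.34, -0.32 and -0.07 in WT, and HNKO had a lowest of -0.48, a median of 0.42 and a highest of 1.20. Its values at day 21 were -0.51, -0.61, -0.43, 0.00 and -0.78 in WT and 1.22, -0.14 and 0.28 in HNKO. The groups overlapped on the later days. C5ar1 was called at day 6 (2.82, SE 0.43, adjusted p = 8.36e-05), and its differences of 1.12, 0.65 and 1.10 at days 3, 12 and 21 did not pass.

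Among single days, C3ar1 was likewise called at day 6 alone (1.16, SE 0.27, adjusted p = 0.0042). At day 21 its HNKO livers also lay above all WT livers (0.74, adjusted p = 0.145), and it was called there with all 40 libraries (0.0356) and with only the groups of that day (0.0417). Both receptor calls of day 6 were kept in every alternative setting and every fit with a library left out. In the mean of the 4 days both receptors were called higher too (0.78 for C3ar1 and 1.42 for C5ar1), against 19.2% of all genes. Those calls ended in 0 of 38 fits with a library left out. Beside them stand the neutrophil markers S100a8, with -2.15 to -0.16 log2 CPM in WT and 1.08 to 3.08 in HNKO at day 6, and S100a9, with -0.90 to -0.08 and 1.78 to 3.78. Of the other 5 neutrophil markers, Retnlg was highest in the HNKO livers of day 6 (-1.74 to 0.36 log2 CPM, against -3.80 to -1.41 in the rest), so its call is not counted, and Ly6g, Mpo, Elane and Camp were removed by the filter and not tested. Of the 9 macrophage or monocyte markers, 8 were called at that day as well, and their part in the receptor values was not tested.

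Levels were compared between genes per kilobase of exon, over the 19 WT livers. C3 led with 11.04 ± 0.25 log2 CPM per kilobase (mean ± SD), followed by Vtn (10.06 ± 0.21), Kng1 (9.63 ± 0.22) and Plg (9.27 ± 0.25). Cfd (-2.13 ± 2.07), C5ar1 (-1.78 ± 0.44) and C3ar1 (0.15 ± 0.31) were lowest, and C6 (2.77 ± 0.49) was the lowest liver-made member. Of the 40 pairs of neighbours in this order, 23 lay closer than the mean of their SDs. C8g (7.41 ± 0.29) stood above C9 (5.97 ± 0.60), C8a (5.69 ± 0.66) and C8b (5.48 ± 0.78) in WT, and at 6.99 ± 0.32 beside 7.07 ± 0.47 for C9, 7.27 ± 0.51 for C8a and 6.13 ± 0.55 for C8b in HNKO.

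**Figure D5:**
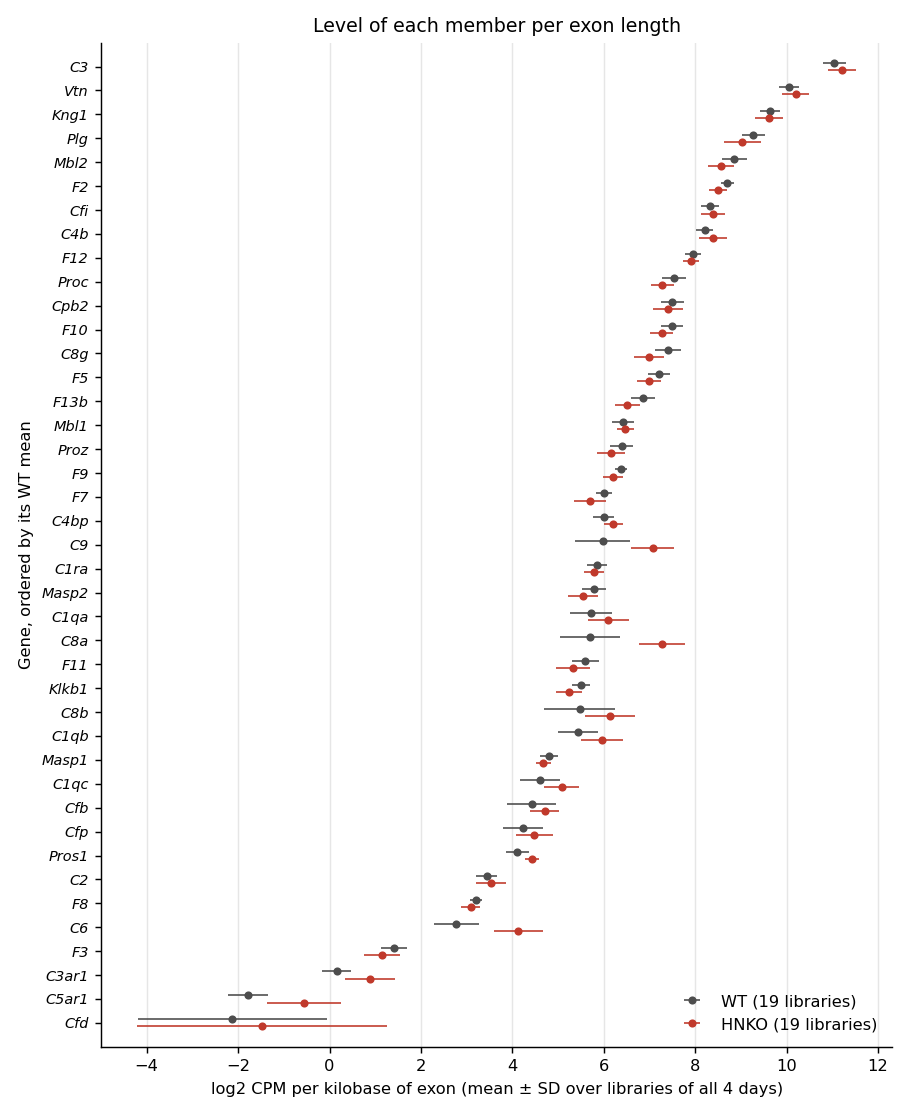
Level of each of the 41 members (log2 CPM per kilobase of exon, x axis; mean ± SD over the 19 libraries of a genotype, all days together), ordered by the WT mean, WT in grey and HNKO in red. C8a, C9 and C6 have the widest gaps between the genotype means among liver-made members.

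Among 68 other complement and coagulation genes, 62 passed the filter. Of these, 5, 20, 13 and 3 were called higher and 0, 1, 3 and 1 lower at days 3, 6, 12 and 21, with a background over all genes of 2.95%, 8.42%, 4.56% and 2.21% higher and 1.71%, 4.37%, 3.27% and 0.916% lower. Of those called at 2 days or more, the 6 with the smallest p in the mean test were Thbs1 (thrombospondin 1; mean difference 1.92, SE 0.20), F2rl1 (the receptor PAR2), Itgax (a chain of complement receptor 4; mean difference 1.63, SE 0.20), Plat (tissue plasminogen activator; mean difference 2.36, SE 0.30), Plaur (the urokinase receptor; mean difference 1.39, SE 0.18) and Thbd (thrombomodulin; mean difference 0.66, SE 0.09). F2rl1 lay at -3.80 to -1.19 log2 CPM in WT, where few or no reads were counted, and at -0.96 to 1.64 in HNKO, so no difference is given for it and its calls, which the counts above include, are not read further. The other 5 were higher in HNKO, and Thbs1 and Plat were called at all 4 days.

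Libraries numbered 1 to 21 and 22 to 41 each repeat the order of days, and the HNKO libraries used at day 21 all belong to the second series. Within these series C6 was higher in HNKO in 7 of 7 comparisons with both genotypes (0.97 to 1.85), as were C8a (0.64 to 2.34), C9 (0.39 to 1.48), Pros1 (0.05 to 0.51) and C1qc (0.17 to 0.86). C1qa (0.14 to 0.55), C1qb (0.19 to 0.83), C4bp (0.03 to 0.40) and C5ar1 (0.08 to 3.09) were above WT in 7 of 7 as well, and Cfp in 5 of 7 (-0.23 to 0.55). F5, F13b and Klkb1 were below WT in 7 of 7, by -0.55 to -0.17 for F13b, while Mbl2 was above WT in 1 of 7 (-0.57 to 0.04).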

How the data were processed

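Total RNA of whole liver was depleted of ribosomal RNA, made into stranded libraries and sequenced as 51-base paired ends. Per the labels and methods, the authors aligned reads with STAR 2.7.2b to GRCm38 and deposited raw counts per GENCODE gene from featureCounts 1.6.4. From these counts, genes were filtered with filterByExpr (minimum count 10), normalized by TMM and tested with edgeR 4.0.16 in R 4.3.3 (legacy quasi-likelihood computation, 1 mean per group, 38 libraries), as in the authors' design, with Benjamini-Hochberg adjustment over 20297 genes. Log2 CPM used a prior count of 2. The steps were tested on simulated data. The members and lists were chosen with earlier results of these data known. Values by library (lowest, median and highest for the group of 6) are given for the C1q chains, members called at 2 days or more, and the member of each role with the smallest p in the mean test. Alternatives were RLE size factors, DESeq2 1.42.0, no filter, all 40 libraries, the library number series as a covariate, only the groups of the day, the edgeR 4 computation, and leaving out each library. Of 74 pairs of libraries within a group, the closest differed by a chi-square of 12.8 per gene, so none was counted as a duplicate. Promoters are from RefSeq and exon lengths from GENCODE.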

Additional observations from a re-analysis of the deposited data

Results flagged for a closer look

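In 98 groups of 4 to 6 livers, over the 14 members whose levels are given by library, 2 livers lay far from the rest of their group, and chance alone flags about 1 group in 20. F5 read 9.22 log2 CPM in HNKO library 29 of day 6, while the other 4 livers read 9.71 to 9.82. Klkb1 read 8.11 in WT library 33 of day 12, while the other 4 read 7.56 to 7.70.

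The 2 HNKO livers of day 21 that failed quality control took no part in the comparisons. With log2 CPM scaled over all 40 libraries, 9 of the 41 members (C1qc, C2, C3ar1, C4bp, C6, C8a, C9, Cfi and Pros1) lay above all 5 WT livers of that day in both of them, against 9.13% of all genes tested. Another 5 (F7, F11, F13b, Klkb1 and Mbl2) lay below all 5, against 24.7%. Libraries 17 and 18 read 5.15 and 6.34 for C6 (WT 3.81 to 4.94), 8.93 and 8.77 for C8a (WT 6.86 to 7.96) and 8.18 and 8.08 for C9 (WT 6.50 to 7.35). They read 6.68 and 6.57 for Pros1 (WT 5.95 to 6.11), 9.09 and 9.16 for C4bp (WT 8.73 to 8.87) and 5.94 and 6.36 for C1qc (WT 4.92 to 5.51). The other C1q chains did not follow in library 17, with 5.01 and 6.19 (WT 5.02 to 5.70) for C1qa and 4.83 and 6.38 (WT 4.86 to 5.45) for C1qb. Among the lower members they read 7.36 and 7.59 (WT 7.86 to 8.21) for F13b, 7.80 and 7.51 (WT 7.86 to 8.27) for Klkb1 and 8.28 and 8.17 (WT 8.61 to 9.0) for Mbl2.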

How the results depend on the processing

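At day 3 the count of 4 members called went to 2 with RLE size factors, 2 with no filter on low counts, 1 with all 40 libraries and 2 with only the groups of that day, to 5 with the number series as a covariate, 5 with the edgeR 4 computation and 6 with DESeq2, and to 1 to 6 with a library left out. Over the 7 settings the count was 6 to 12 at day 6 (8 as reported, the highest with the number series), 4 to 7 at day 12 (5), 4 to 6 at day 21 (4) and, over 5 settings, 22 to 27 in the mean test (25). The calls over all genes moved as well. With the number series they were 1171, 2999, 2000 and 812 of 20297 genes at days 3, 6, 12 and 21. As reported they were 945, 2596, 1588 and 634. With no filter they were 630, 1925, 1086 and 456 of 39297 genes. In the mean test they were 7398 as reported, 7886 with the number series and 6916 with no filter. With a library left out, the other counts spanned 6 to 9 at day 6, 5 to 7 at day 12, 2 to 4 at day 21, 18 to 27 in the mean test, 7 to 10 over days in WT, 6 to 9 over days in HNKO and 0 to 0 for the interaction. Without HNKO library 37, the members called at day 21 were C6 and C8a, of 13 genes called in all against 634 with it. Over the 21 calls of a member at a day, the 7 other settings kept 132 of 147 and leaving out a library kept 166 of 199, and no direction was reversed. Leaving out a library also added calls of members, in 2 fits for C8g, 2 for F7 and 1 each for C5ar1, F2, Klkb1 and Cfd at day 3. At day 6 it added C1qb and F13b in 2 fits each and C8b and C4bp in 1 each, and at day 12 C1qb in 4, Cfp in 2 and C4bp and Mbl2 in 1 each. In the mean test it added Cfp in 5, F8 in 3, F11 in 2 and C4b and Masp1 in 1 each. At day 3 the lower counts came without WT library 24, 25 or 26 or HNKO library 2 or 3 (2 each) or HNKO library 23 (1). Over all genes, the calls at day 3 went from 945 to 331 with all 40 libraries, 420 with the groups of the day and 1428 with DESeq2. In the same order they went from 2596 to 1321 and 1325 at day 6, and from 1588 to 624 and 867 at day 12. With a library left out they spanned 322 to 1668 at day 3, 1126 to 3027 at day 6 and 852 to 1750 at day 12. At day 21 they went from 634 to 1350 with all 40 libraries and 994 with DESeq2, and over days in WT from 1185 to 581 with all 40 libraries and 2224 with the number series as a covariate. The cause of these changes was not tested. No paired analysis was possible because no library number occurs in more than 1 group. Counts limit Cfd, with 0 reads in 13 of the 38 libraries, and C5ar1, with 5 to 296 reads. C3ar1 and F3 were the next lowest members per length, with 86 to 334 reads for F3. With 3 HNKO livers, day 21 has the fewest libraries.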
